A study of Mus musculus with 6 samples.

Results

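The liver-enriched transcription factors are the regulators that set up and hold the gene program of the hepatocyte. They were taken here as 8 genes, Gata4, Gata6, Onecut1, Onecut2, Foxa1, Foxa2, Foxa3 and Hnf4a, and their members on the array were the probe sets to which the platform's annotation gives 1 of these symbols and no other. This gave 8 probe sets of 35556 on the array, exactly 1 for each gene, so that 8 of the 19938 genes with a usable probe set are described. The values came from whole livers of male C57BL6 mice aged 10 weeks. All animals, controls included, had gone without food for 16 h. The saline group (3 arrays) was given saline into the peritoneum, and the IL-6 group (3 arrays) was given 100 ng of interleukin-6 by the same route, 1 h before the livers were collected. Interleukin-6 (IL-6) is the cytokine that starts the acute-phase response of the liver through the transcription factor STAT3.

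These factors bind one another's genes as well as the genes of secreted liver proteins, and together form a network that keeps itself active in the adult liver. GATA4 and GATA6 are zinc finger proteins that bind GATA sites and are needed when the liver bud forms. ONECUT1, also called HNF6, and its relative ONECUT2 carry a cut domain and a homeodomain and act in hepatocytes and in the bile ducts. FOXA1, FOXA2 and FOXA3 are forkhead proteins that can bind closed chromatin and open it for other factors. HNF4A is a nuclear receptor on which most of the differentiated hepatocyte program depends. Some of these genes are also active outside the hepatocyte. Gata4 is a regulator in the sinusoidal endothelium, Gata6 is known from resident macrophages of the peritoneal cavity, and Onecut1 marks bile duct cells as well.

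The RefSeq table of start sites (assembly GRCm38.p6) held 8 windows for 5 of the 8 genes, namely Onecut1, Foxa1, Foxa2, Foxa3 and Hnf4a. The 250 bases before a start are shown for Onecut1, because its transcript rose. They are also shown for Hnf4a and Foxa1, as examples of genes with a window that holds motifs of the factors described here. Foxa2 has such windows too, which are not shown. Lower case marks bases outside a match and capitals mark a match on either strand.
Onecut1, chr9:74861671-74861920, plus strand: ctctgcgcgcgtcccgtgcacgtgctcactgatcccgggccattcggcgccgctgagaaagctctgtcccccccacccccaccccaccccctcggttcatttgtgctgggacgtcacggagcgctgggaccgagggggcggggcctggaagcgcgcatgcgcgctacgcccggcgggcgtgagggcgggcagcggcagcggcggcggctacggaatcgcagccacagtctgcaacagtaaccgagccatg
Hnf4a, distal start, chr2:163506607-163506856, plus strand: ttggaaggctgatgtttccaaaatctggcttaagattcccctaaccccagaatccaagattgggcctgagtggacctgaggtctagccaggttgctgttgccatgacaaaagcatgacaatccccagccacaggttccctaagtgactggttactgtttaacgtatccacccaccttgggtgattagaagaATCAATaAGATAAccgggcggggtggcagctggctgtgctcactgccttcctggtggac
Hnf4a, proximal start, chr2:163546905-163547154, plus strand: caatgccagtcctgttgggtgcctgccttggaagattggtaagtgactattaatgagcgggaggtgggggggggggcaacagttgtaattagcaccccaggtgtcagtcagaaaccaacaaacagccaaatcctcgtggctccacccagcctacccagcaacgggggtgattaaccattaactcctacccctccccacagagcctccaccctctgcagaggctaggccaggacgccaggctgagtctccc
Foxa1, chr12:57546112-57546361, minus strand: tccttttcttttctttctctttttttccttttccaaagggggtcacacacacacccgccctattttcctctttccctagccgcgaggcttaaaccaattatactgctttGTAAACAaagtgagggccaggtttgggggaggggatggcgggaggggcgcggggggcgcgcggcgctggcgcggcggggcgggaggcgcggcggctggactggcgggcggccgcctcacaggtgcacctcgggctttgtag
The letters searched on both strands were TTCNNNGAA for STAT factors, AGATAA for GATA factors, ATTGAT for ONECUT factors, TGTTTAC for FOXA factors and CAAAGTCCA for HNF4A. The distal window of Hnf4a held a ONECUT match (ATCAAT, 59 to 54 bases before the start) and, with 1 base between them, a GATA match (AGATAA, 52 to 47 bases before the start). The proximal window of Hnf4a, which belongs to the promoter mainly used in adult hepatocytes, held none of the 5 motifs. The window of Foxa1 held a FOXA match (GTAAACA, 141 to 135 bases before the start). Of the 3 windows of Foxa2, 1 held a GATA match, 1 an ONECUT match and 1 none. The windows of Onecut1 and Foxa3 held none of the 5 motifs, the STAT motif included. For comparison, over all 32851 windows of this length the STAT motif was found in 7.02%, the GATA motif in 9.99%, the ONECUT motif in 6.72% and the FOXA motif in 3.17%. The HNF4A motif was found in 0.384%. These matches describe letters in short windows and not sites that were bound in these livers.

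One hour after IL-6, transcripts of Gata6 and Onecut1 were higher, by 1.76-fold and 1.56-fold, and the other 6 genes did not pass the test. Onecut2 had the next largest difference, 1.21-fold. The Foxa genes, Hnf4a and Gata4 had fold values between 0.881 and 1.07, and their 95% intervals all included 1. In limma, 2 of the 8 genes were called at an adjusted p under 0.05, both higher, where 0.421% of all 19938 genes were called and 0.386% were called higher. At an unadjusted p under 0.05 the count was 3 of 8, all higher, against 3.78% of all genes higher, 2.83% lower and 6.62% in either direction. The 3 IL-6 values lay above the 3 saline values in the same 3 genes, Gata6, Onecut1 and Onecut2, and in 6.15% of all genes. The median difference of the 8 genes was 0.09 on the log2 scale beside 0.003 over all genes, and differences ran from -0.18 to 0.81. The genes were chosen as a group with results of these arrays known, so these counts describe the group and do not test it.

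**Figure D1:**
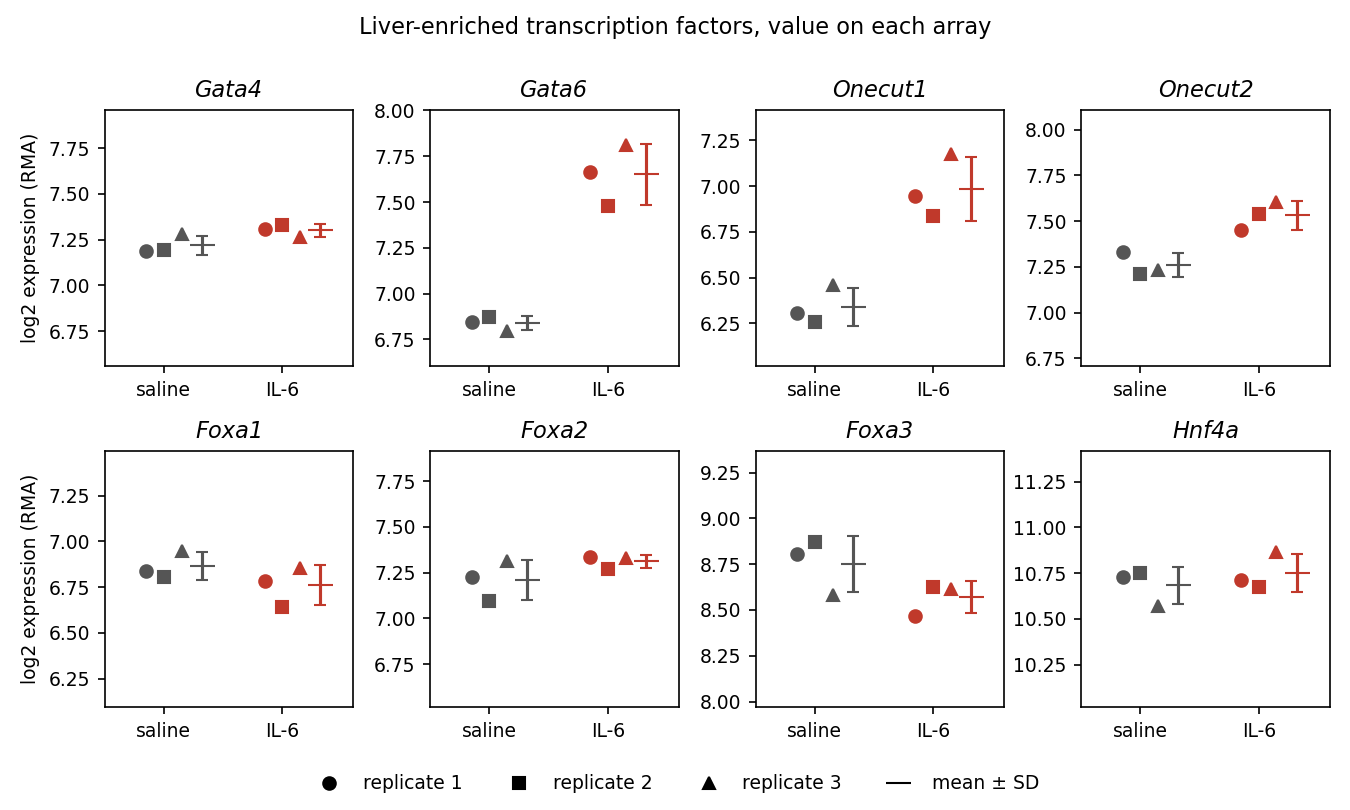
Value of each of the 8 genes on each array, in log2 expression units, with a panel per gene whose vertical axes all span the same range. Symbols stand for replicates 1 to 3 of a group, and the bar beside them gives the mean ± SD (n = 3). The IL-6 arrays lie above the saline arrays for Gata6, Onecut1 and Onecut2, and the groups overlap for the other 5 genes.

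The arrays were alike overall. Pearson correlations over all probe sets ran from 0.987 to 0.991, and array medians lay between 5.42 and 5.48. Socs3, a feedback inhibitor induced by STAT3, served to check the labels, with 6.40 ± 0.22 after saline and 9.55 ± 0.09 after IL-6 (SD, n = 3 each, limma adjusted p = 1.45e-06). The 8 genes all had a mean level above the median of all genes, which was 5.77 on the log2 scale. That alone does not show that a gene was expressed. The pancreatic markers Cela1 (6.11) and Ctrb1 (5.92) also lay above it, while 3 of the 5 pancreatic markers measured lay below. A level depends on the probes of its probe set, and levels of different genes are not set against each other here.

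Of the GATA factors, Gata6 (probe set 10453857) had log2 values of 6.85, 6.87 and 6.80 on the saline arrays and of 7.66, 7.48 and 7.81 on the IL-6 arrays. The lowest IL-6 array stood well above the highest saline array, and the IL-6 arrays differed more among themselves (SD 0.17) than the saline arrays did (SD 0.04). The difference was 0.81 ± 0.09 (standard error), or 1.76-fold with a 95% interval of 1.52 to 2.03 (limma adjusted p = 0.00572). Its p ranked 34 among those of all genes tested. The call held whichever single array was left out, with adjusted p between 0.00562 and 0.0402. It was lost without saline replicate 2 and IL-6 replicate 3 together (0.75 ± 0.10, limma adjusted p = 0.0761), the arrays that lie apart on the second principal component, and when all 35556 probe sets were tested (0.0981). In bulk liver, more cells that express a gene and more RNA per cell cannot be told apart, for Gata6 and for every gene that follows.

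Gata4 (10420747), the other GATA gene of the liver, had 7.19, 7.19 and 7.28 on the saline arrays and 7.31, 7.33 and 7.26 on the IL-6 arrays. The lowest IL-6 value lay below the highest saline value, so the groups overlapped. Its difference was 0.08 ± 0.07, and the 95% interval of the fold ran from 0.946 to 1.18 (limma adjusted p = 0.926), an interval that lies below the one for Gata6. On each array the value of Gata4 was set against that of Gata6. The response of Gata4 was lower than that of Gata6 by a log2 difference of -0.73 ± 0.13, and the per-array values of the groups did not overlap. The exact two-sided permutation test gave p = 0.1, the smallest value that 3 arrays against 3 allow, and 0.167 after Benjamini-Hochberg adjustment over the 5 pairs compared. The design therefore cannot place this difference under 0.05 by that test.

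Onecut1 (10587082) had log2 values of 6.31, 6.26 and 6.46 on the saline arrays and of 6.95, 6.84 and 7.18 on the IL-6 arrays. The groups were clearly apart. IL-6 replicate 3 was the highest and IL-6 replicate 2 the lowest of the IL-6 arrays, an order also seen for Gata6, Foxa1 and Hnf4a. The difference was 0.64 ± 0.10, or 1.56-fold with a 95% interval of 1.33 to 1.83 (limma adjusted p = 0.0333), and its p ranked 73. This call was close to the threshold. Leaving out any 1 array other than IL-6 replicate 2 ended it (limma adjusted p between 0.0638 and 0.144), while the difference itself stayed between 0.55 and 0.72. Without saline replicate 2 and IL-6 replicate 3 together it was 0.51 ± 0.10 (limma adjusted p = 0.307), and over all probe sets the adjusted p was 0.202.

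Onecut2 (10456248) had 7.33, 7.21 and 7.24 on the saline arrays and 7.45, 7.54 and 7.60 on the IL-6 arrays. The groups did not overlap, but the gap between them was narrow. The difference was 0.27 ± 0.08, or 1.21-fold with a 95% interval of 1.07 to 1.36, with an unadjusted limma p of 0.00633 and an adjusted p of 0.409. Over 20 alternative settings it never passed the threshold, and the difference stayed between 0.21 and 0.31. The response of Onecut1 exceeded that of Onecut2 by 0.37 ± 0.11 on the log2 scale, with per-array values that did not overlap (exact two-sided permutation p = 0.1, 0.167 after adjustment over the 5 pairs).

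**Figure D2:**
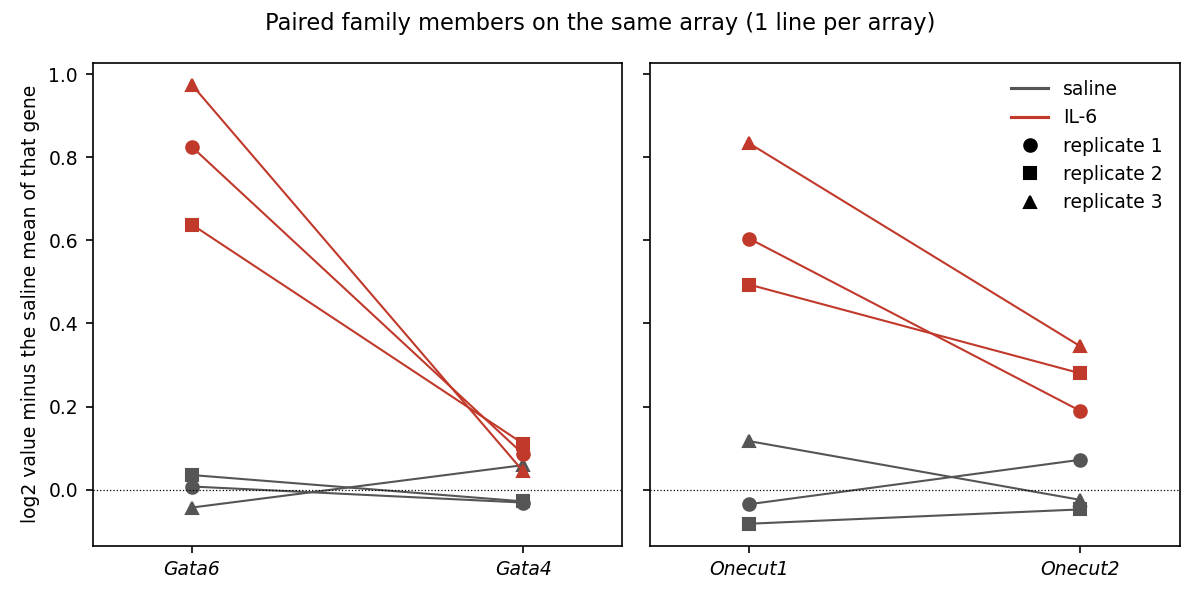
Log2 value minus the saline mean of the same gene, for Gata6 and Gata4 (left) and for Onecut1 and Onecut2 (right), with 1 line per array. On the IL-6 arrays Gata6 lay 0.64 to 0.97 above its saline mean and Gata4 0.04 to 0.11, while Onecut1 lay 0.49 to 0.83 and Onecut2 0.19 to 0.34 above theirs.

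The forkhead genes had small differences of either sign. Foxa1 (10400504), which acts with Foxa2 in specifying the liver, had 6.84, 6.80 and 6.95 after saline and 6.78, 6.64 and 6.86 after IL-6. The groups overlapped, and the difference was -0.10 ± 0.08 (limma adjusted p = 0.914, 95% interval of the fold 0.816 to 1.06). Foxa2 (10488374), the partner of Foxa1 in that step, had 7.22, 7.10 and 7.31 after saline and 7.33, 7.27 and 7.33 after IL-6. Here too the groups overlapped, with a difference of 0.10 ± 0.08 (limma adjusted p = 0.914, interval 0.947 to 1.22).

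Foxa3 (10560431), which helps to keep blood glucose up in fasting, had 8.80, 8.87 and 8.58 after saline and 8.47, 8.62 and 8.62 after IL-6. Saline replicate 3 fell among the IL-6 values, so the groups overlapped. The difference was -0.18 ± 0.09 (limma adjusted p = 0.832, interval 0.760 to 1.02). Within the family, the response of Foxa1 lay below that of Foxa2 by -0.21 ± 0.05 without overlap of the per-array values (exact two-sided permutation p = 0.1, 0.167 adjusted over the 5 pairs). The responses of Foxa1 and Foxa3 differed by 0.08 ± 0.16 (exact permutation p = 0.8, 0.8 adjusted). Those of Foxa2 and Foxa3 differed by 0.28 ± 0.16 (exact permutation p = 0.3, 0.375 adjusted). In both pairs the per-array values of the groups overlapped. The difference between Foxa2 and Foxa3 moved with single arrays, to 0.17 without saline replicate 2 and 0.42 without saline replicate 3.

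Hnf4a (10478389) had 10.73, 10.75 and 10.57 on the saline arrays and 10.71, 10.67 and 10.87 on the IL-6 arrays. The ranges lay over each other, and the difference was 0.07 ± 0.09 (limma adjusted p = 0.955). The 95% interval of the fold ran from 0.916 to 1.20, so a change of the size seen in Gata6 or Onecut1 lay outside it. The array has 1 probe set for Hnf4a, and transcripts from the distal and the proximal start were not separated here.

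**Figure D3:**
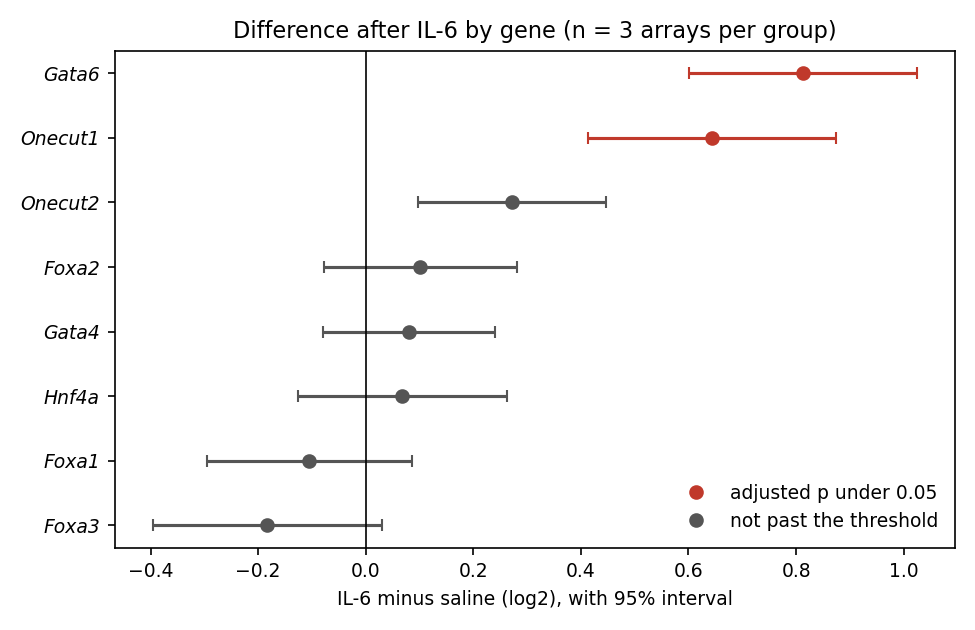
Difference between IL-6 and saline means for each of the 8 genes on the log2 scale, with limma's 95% interval (n = 3 arrays per group) and a line at 0. Gata6 (0.81) and Onecut1 (0.64) passed the threshold of an adjusted p under 0.05, Onecut2 (0.27) has an interval above 0 without passing, and the intervals of the other 5 genes cross 0.

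**Figure D4:**
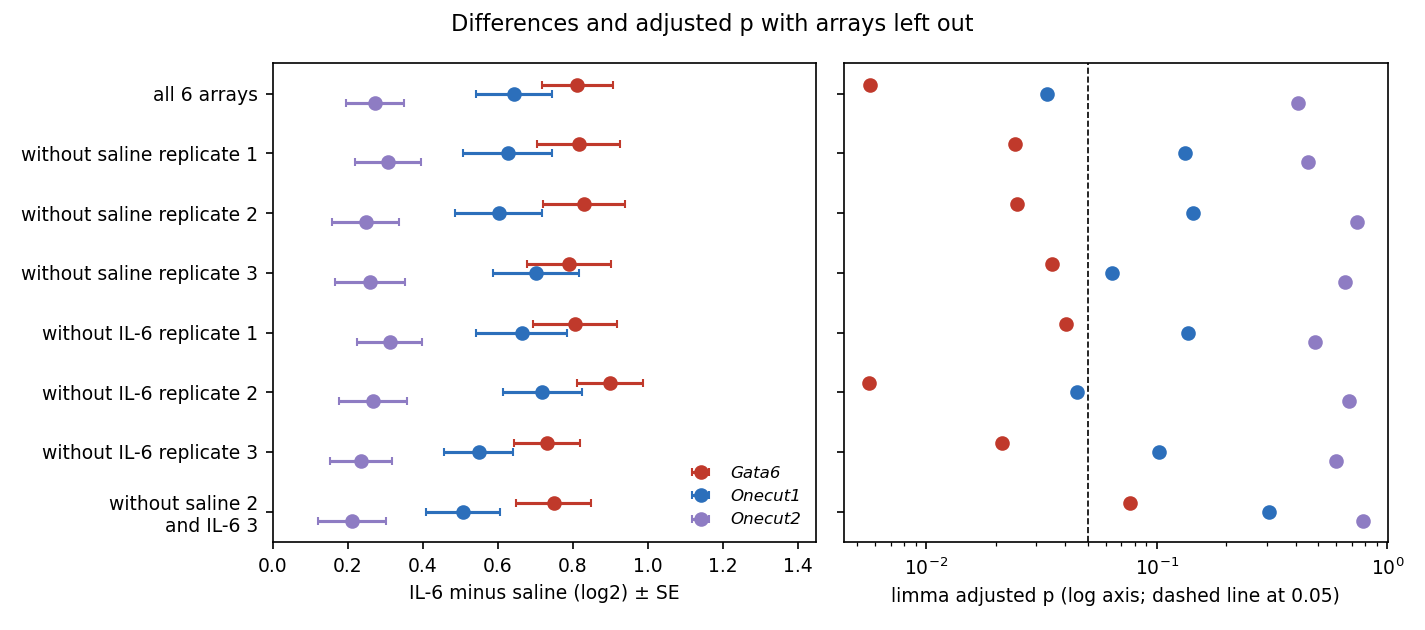
Differences ± standard error (left, log2) and limma adjusted p (right, log axis) for Gata6, Onecut1 and Onecut2, with all 6 arrays and with arrays left out. Gata6 stayed under 0.05 with any 1 array left out and rose to 0.0761 with 2 left out, Onecut1, under it with all arrays, stayed so only when IL-6 replicate 2 was the array left out, and Onecut2 never did.

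Close relatives and cofactors of these factors, a list that holds the other GATA, HNF4 and ONECUT genes, the FOG cofactors of GATA proteins and other forkhead genes, had 19 measured genes. Of these, 1 rose and 18 did not pass, so 5.26% were called beside 0.421% of all genes. The median difference was -0.04 beside 0.003 over all genes. At an unadjusted p under 0.05, 1 was higher and 1 lower, which is 10.5% of the list beside 6.62% of all genes. The gene that rose was Foxq1 (10404402), a forkhead gene outside the FOXA family, with 6.86, 6.33 and 6.40 on the saline arrays and 7.39, 7.49 and 7.51 on the IL-6 arrays. The groups were well apart, and saline replicate 1 stood above the other saline arrays. Its difference was 0.93 ± 0.13 (limma adjusted p = 0.0165). The call held without saline replicate 1 (limma adjusted p = 0.00149) and was lost on leaving out any other single array (up to 0.105). It was also lost without saline replicate 2 and IL-6 replicate 3 together (0.81 ± 0.15, limma adjusted p = 0.287) and when all probe sets were tested (0.165). Over 20 alternative settings Foxq1 kept its call in 12 and lost it in 8. Gata3, a lymphocyte and epithelial GATA factor, had the lowest p on the falling side, with -0.31 ± 0.09 (limma adjusted p = 0.476). It is named here after its values were seen, as are the relatives that follow. Gata1, Gata2 and Gata5 had differences of 0.18 ± 0.10, -0.05 ± 0.08 and -0.06 ± 0.09, Hnf4g had 0.12 ± 0.10 and Onecut3 had -0.04 ± 0.08. In this list 12 of the 19 genes had a mean level below the median of all genes, and 3 lay below the 25th percentile. Gata1, Gata2, Gata3 and Hnf4g were among those 12, and Hnf4g among the 3, so their differences say little. Of these relatives, only Foxq1 passed.

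Among 37 measured transcription factors of the wider hepatocyte network (of 40 listed), limma called 0, beside 0.421% of all genes. The median difference was 0.003. At an unadjusted p under 0.05, 3 were higher and 2 lower, which is 13.5% of the list beside 6.62% of all genes. The smallest p belonged to Sox9, a factor of bile duct cells, which went from 6.87 ± 0.17 to 7.28 ± 0.13 (SD, n = 3, difference 0.41 ± 0.11, limma adjusted p = 0.326). Klf15, a regulator of amino acid breakdown in fasting, had -0.28 ± 0.08 (limma adjusted p = 0.414), and Cebpb, an acute-phase regulator, had 0.38 ± 0.12 (limma adjusted p = 0.522). None of these passed.

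Hepatocyte genes known to be regulated by HNF4A, FOXA or HNF6 gave the same count. Of 35 measured genes (of 45 listed) limma called 0, beside 0.421% of all genes, and the median difference was 0.006. At an unadjusted p under 0.05, 1 was higher and 1 lower, which is 5.71% of the list beside 6.62% of all genes. G6pc, an enzyme of glucose release, had -0.34 ± 0.11 (limma adjusted p = 0.532), Igfbp1, a secreted binding protein of insulin-like growth factors, had 0.48 ± 0.18 (limma adjusted p = 0.652), and Hpd, an enzyme of tyrosine breakdown, had -0.17 ± 0.08 (limma adjusted p = 0.796). These livers were sampled at 1 h, and no later time is included.

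Because several of the factors are active in more than 1 cell type, markers of the cells of the liver were read on the same arrays as means relative to the saline mean. The labelled tissue was borne out by its markers, with the 10 measured hepatocyte markers at a mean level of 12.52 to 12.57 on every array. They averaged -0.02 to 0.01 relative to the saline mean on saline arrays and 0.006 to 0.02 on IL-6 arrays. The 8 measured bile duct markers averaged -0.04 to 0.02 on saline arrays and -0.04 to 0.08 on IL-6 arrays, and limma called 0 of them. At an unadjusted p under 0.05 there was 1 (Sox9, given above), or 12.5% beside 6.62% of all genes. Of these 8 markers, 7 had a mean level below the median of all genes, so their averages say little about bile duct content. The 12 endothelial markers averaged -0.04 to 0.02 and -0.10 to 0.08, and the 12 stellate cell and fibroblast markers -0.04 to 0.05 and 0.04 to 0.08.

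The 11 macrophage markers averaged -0.08 to 0.05 on saline arrays and 0.006, 0.27 and 0.01 on IL-6 replicates 1, 2 and 3. Their mean was thus highest on IL-6 replicate 2. Without that array the difference of Gata6 was 0.90 and that of Onecut1 0.72. The 10 neutrophil markers averaged -0.03 to 0.04 and -0.12 to 0.13, with 1 called by limma, S100a8 (0.65 ± 0.09, adjusted p = 0.0211), whose saline level of 3.60 is dim. All 10 had a mean level below the median of all genes, and 6 lay below the 25th percentile, so their averages say little about neutrophil content. Of these 10, 4 differences were positive and 6 negative, and at an unadjusted p under 0.05 1 was higher (S100a8) and 1 lower (Ly6g, -0.27 ± 0.10, limma adjusted p = 0.655). In this list 10% were called, beside 0.421% of all genes, and 20% passed the unadjusted threshold, beside 6.62%. The 5 pancreatic markers averaged -0.07 to 0.05 and -0.10 to 0.005. Limma called 0 of the hepatocyte, endothelial, stellate, macrophage and pancreatic markers. At an unadjusted p under 0.05, 2 macrophage markers were higher, 1 pancreatic marker was lower, and none of the others passed. That is 18.2% of the macrophage list and 20% of the pancreatic list, beside 6.62% of all genes. Differences were positive in 10 and negative in 1 of the macrophage markers, and positive in 10 and negative in 2 of the stellate markers. The split was 9 and 3 for endothelial, 7 and 3 for hepatocyte, and 2 and 3 for pancreatic markers. In each of these lists, the saline and IL-6 ranges overlapped. The part of cell composition in the rises of Gata6 and Onecut1 was not tested.

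The gene whose profile over the 6 arrays was most like that of Gata6 was sought among 904 genes at or above the median level with a range of at least 0.5 on the log2 scale. The closest were Rnd3, a small GTP-binding protein that acts against RhoA (r = 0.998), Slc39a14, a zinc and iron transporter (r = 0.998), and B4galt1, a galactosyltransferase of glycoprotein synthesis (r = 0.997). All of these rose, by 0.93, 0.82 and 0.97 on the log2 scale (limma adjusted p = 0.00572, 0.00532 and 0.00572). The profiles most opposed to it were those of G0s2, an inhibitor of the lipase ATGL (r = -0.955), Mafa (r = -0.951) and Prob1 (r = -0.937). Of these G0s2 fell, by 1.09 on the log2 scale, and Mafa and Prob1 had differences of -0.37 and -0.44 that did not pass (limma adjusted p = 0.154 and 0.135). With 6 arrays in 2 groups, any gene with a clear group difference gives a high r. Of the 904 genes, 113 had an r over 0.9, so these values order profiles and do no more.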

How the data were processed

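Biotin-labelled total RNA of whole liver was read on 6 Affymetrix arrays of 1 colour, 1 sample on each. The values deposited by the authors are on the log2 scale, 1 per probe set, and per the submitters' processing notes they came from RMA. That method subtracts background, makes the arrays' distributions equal and combines the probes of a set, which can shrink large changes and hide a shift shared by most genes. For its version, its settings and the build, nothing is given in the sources used here. Scanner intensities were not used here.

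Probe sets with exactly 1 gene symbol (21789 of 35556) were kept, and of several for a gene the brightest was used, which gave 19938 genes. Groups were compared in limma 3.58.1 (R 4.3.3, lmFit and eBayes, two-sided). P-values were adjusted over all genes by Benjamini-Hochberg, at a threshold of 0.05. On simulated data, the fit called 64% of genes given a log2 difference of 0.5 and 94% of those given 1. Smaller differences were not simulated, so these shares say nothing on differences such as that of Onecut2. Differences carry limma's standard error, with a median of 0.089 over genes. Differences between family members carry the standard error of per-array values. The number of arrays limits the precision, and as the labels do not assign each array its own animal, the spread may be partly technical.

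The 8 genes, the lists and the alternatives were chosen with earlier results of these data known. Named genes were the members, Socs3, the called genes of the relatives, factor and target lists (or else the 3 with the smallest p in a list), and the 3 genes most and least like the member with the smallest p. Other relatives, partners of HNF4A and cell type markers were named after their values were seen. Same-numbered arrays deviated from their group means with correlations of 0.08, -0.12 and -0.09 and were not taken as pairs. Alternatives covered normalization, dim genes, probe sets, variance priors, array weights, thresholds, the replicate number as a block and arrays left out. Sequences are from a RefSeq promoter table (GRCm38.p6). Plots used matplotlib 3.10.9 (Python 3.11.15).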

Additional observations from a re-analysis of the deposited data

How the results depend on the processing

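Over 20 alternatives each, all 8 genes kept the sign of their difference. Its size moved with single arrays left out, from 0.010 to 0.11 for Hnf4a, -0.15 to -0.044 for Foxa1, 0.045 to 0.15 for Foxa2, -0.27 to -0.12 for Foxa3 and 0.065 to 0.11 for Gata4. Gata6 kept its call in 18 and lost it in 2, Onecut1 kept it in 12 and lost it in 8, and the other 6 genes passed in none. Leaving out 1 array gave 1 to 2 higher member genes, 45 to 67 higher and 3 to 5 lower of all genes, and 0 to 1 higher among the relatives; with 5 arrays fewer degrees of freedom remain. Without saline replicate 2 and IL-6 replicate 3, limma called 0 members, 0 relatives, and 31 higher and 2 lower of all genes. At an unadjusted p under 0.05, 2 members were then higher, and 2 relatives were higher and 1 lower. When every probe set was tested, limma called 0 members higher (3 at an unadjusted p under 0.05), with Gata6 at an adjusted p of 0.0981 and Onecut1 at 0.202, and 16 higher and 1 lower of all probe sets. For neither of these settings is the share of all genes under that unadjusted threshold given here. With all 6 arrays and 1 probe set per gene it was 6.62%. At an adjusted p under 0.01, 1 member was higher, with 40 higher and 3 lower of all genes. Under 0.10, 2 members were higher, with 97 higher and 12 lower of all genes. The difference between Foxa1 and Foxa3 in the response, 0.08 with all arrays, ran from -0.011 to 0.21 with 1 array left out (-0.011 without saline replicate 2) and was -0.036 without both saline replicate 2 and IL-6 replicate 3. The cause was not tested. With the replicate number as a block, which the arrays do not bear out as a pairing (2 of 6 arrays correlated best with their own number), 2 members were higher, with Gata6 at an adjusted p of 0.0235 and Onecut1 at 0.0272, beside 59 higher and 6 lower of all genes.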

Other observations

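Partners of HNF4A in the adult hepatocyte network and a cofactor of GATA proteins, named here after their values were seen, had small differences. Nr1h4, the bile acid receptor, had 0.14 ± 0.09, Nr5a2, a receptor that supports bile acid synthesis, had 0.14 ± 0.10, and Nr0b2, the repressor SHP, had 0.13 ± 0.14 on the log2 scale (standard error, limma adjusted p = 0.879, 0.903 and 0.941). Prox1, a homeobox factor and corepressor of HNF4A, had 0.17 ± 0.10 and Zfpm1, a FOG cofactor of GATA proteins, 0.18 ± 0.09 (limma adjusted p = 0.854 and 0.832). Ppara, the fatty acid receptor active in fasting, had 0.04 ± 0.09 and Cebpa, a factor of the resting hepatocyte, -0.04 ± 0.07 (limma adjusted p = 0.976 and 0.965). None of these 7 genes passed the threshold. They do not stand for the wider hepatocyte network, whose 37 measured factors had 19 positive and 18 negative differences, from -0.28 to 0.41.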
